A study of Tribolium castaneum with 16 samples.

Results

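Open chromatin of the larval brain was compared with that of young whole embryos in Tribolium castaneum, the red flour beetle, with 2 FAIRE-seq peak lists titled larval CNS set against 2 lists titled 0hr. They were 4 of the 16 samples of the series, 14 of which were FAIRE libraries with a peak list. The larval CNS group was brain dissected from last-instar larvae of the strain pu11 and fixed for 20 minutes (n = 2). The embryo group was whole embryos of the strain Georgia I, aged 0 to 24 h after egg laying and fixed for 30 minutes (n = 2). Strain, stage, tissue, dissection, fixation time and the length of the recorded library index (6 nt in CNS and 5 nt in embryos) all changed together between the groups and cannot be told apart. The number of animals pooled in a sample and whether replicates came from separate collections were not stated, so the spread between replicates may be technical. The titles speak of CNS, whereas the source and tissue labels and the peak names speak of brain.

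FAIRE enriches DNA that is not wrapped in nucleosomes, since crosslinked nucleosomes hold DNA at the phenol interface while free DNA stays in the aqueous phase. Regions recovered in this way include promoters, enhancers and insulators. Insect embryos at this age pass from the blastoderm to the growing germ band while the segments are laid down. The larval brain is made largely of differentiated neurons and glia, with neuroblasts that go on dividing. In whole embryos and whole brains, a region open in few cells and a region weakly open in many cells cannot be told apart. Peaks were not placed on genes here, so the brain and embryo labels were not checked against marker genes.

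The CNS lists were the deeper ones. The background depth recovered from the lists as the reads expected at a base after extension, was 9.85 and 5.91 in CNS replicates 1 and 2, against 3.71 and 4.72 in embryo replicates 1 and 2. The CNS lists held 36080 and 34095 peaks, against 31485 and 33884 in the embryo lists. Both CNS lists were longer than both embryo lists, by 2403 peaks on average (two-sided exact permutation p = 0.333, which no split of 2 against 2 lists can go below, and 0.417 after adjustment over 5 tests). Covered length was 10.6 and 10.2 Mb in CNS, against 9.56 and 10.6 Mb in embryos. The mean difference of 0.347 Mb was smaller than the spread between embryo replicates (two-sided exact permutation p = 0.667 before and after adjustment), and without embryo replicate 1 it was −0.163 Mb. At each base where a CNS list and an embryo list had the same summit (469 to 691 positions per pair), the local background relative to the depth of its list was the same within 0.01.

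Peaks of the 4 lists that overlapped by at least 1 bp were merged into 44347 regions, and each region was classed by the lists that called it. A total of 4860 regions (11.0% of all merged regions) were called in both CNS lists and in neither embryo list, and are called CNS-only here. A further 3703 regions (8.35%) were called in both embryo lists and in neither CNS list, and are called embryo-only. The largest class was the 21200 regions called in all 4 lists (47.8%). The remaining 14584 regions (32.9%) were called in 1 list of a side or in mixed combinations, led by 4501 regions found in CNS replicate 1, the deepest list, and in no other.

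The balance of the classes depended on the lists. CNS-only regions outnumbered embryo-only regions with the deposited lists, and made up 56.8% of the regions of these 2 classes. Cutting each list to its best 31485 peaks by −log10 p, the size of the shortest list, gave 4557 CNS-only regions (10.8%) and 4271 embryo-only regions (10.1%), a CNS share of 51.6%, with 44.5% of regions in all 4 lists. The last peak kept had a −log10 p of 7.15 in CNS replicate 1, 6.45 in CNS replicate 2 and 7.21 in embryo replicate 2, and the first peak left out had the same value at this precision. Embryo replicate 1, the shortest list, was not cut and kept peaks down to a −log10 p of 2.63. The lists were then of equal size but of unlike stringency. Scaling pileup and background to the depth of embryo replicate 1 gave 4793 CNS-only regions (10.9%) and 3841 embryo-only regions (8.73%), with 47.0% in all 4. Of the CNS-only regions found with the deposited lists, 4792 overlapped a CNS-only region after scaling and 4300 after the cut to equal sizes. Of the embryo-only regions, 3702 did so after scaling and 3265 after the cut. Scaling could only drop called peaks, and left the embryo lists almost whole, at 31485 and 33878 peaks. An embryo-only region could thus hardly leave its class by scaling, and the 3702 are no check of depth. The CNS lists kept 34619 and 33981 peaks, and scaling could add no embryo call. A CNS-only region could thus leave its class only by losing a CNS peak, so the 4792 say little about depth either. Without CNS replicate 2 the CNS-only class grew to 9468 regions, and the embryo-only class to 5939. Without embryo replicate 1 the order of the 2 classes turned round, with 5393 CNS-only regions and 5624 embryo-only regions.

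**Figure D1:**
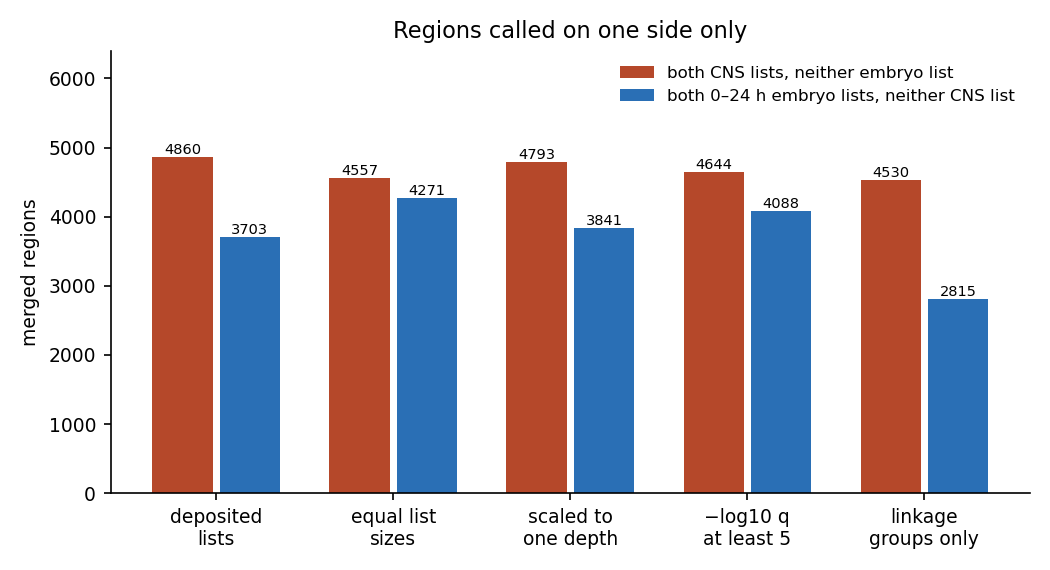
Number of merged regions called in both lists of one group and in neither list of the other, under 5 settings; the left bar of each pair is CNS and the right bar is embryo. CNS-only regions are more numerous under all 5 settings, by the smallest margin at equal list sizes (4557 and 4271) and by the largest on linkage groups (4530 and 2815).

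One-sided regions were narrower than shared ones and ranked lower in each list. Their median width was 214 bp in the CNS-only class and 200 bp in the embryo-only class, against 379 bp for regions called in all 4 lists. These widths are not like for like, since one-sided regions join peaks of 2 lists and shared regions peaks of 4. Within single lists, the strongest peak of a shared region had a median width of 258 to 294 bp. No CNS-only region was wider than 1 kb, whereas 27 embryo-only regions were. The fold enrichment of a peak over the background is the authors' own value within its list, and its percentile among all peaks of that list was used to compare lists. The median percentile of CNS-only regions was 56.1 and 39.6 in CNS replicates 1 and 2, and that of embryo-only regions was 32.2 and 34.7 in embryo replicates 1 and 2. For regions called in all 4 lists it was 61.0 and 63.0 in the CNS lists, and 61.9 and 64.6 in the embryo lists, so CNS-only regions in CNS replicate 1 were close to shared ones. Only 96 CNS-only regions and 56 embryo-only regions lay in the top 10% of both lists of their side. Most of the strongest peaks were shared. Of the regions in the top 10% by fold, 87.2% and 93.0% in the CNS lists, and 95.4% and 94.4% in the embryo lists, had been called in all 4 lists.

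A small set of one-sided regions was nevertheless among the strongest of its lists. The named ones were chosen by the largest value of their smaller fold, on linkage groups. The strongest CNS-only region on a linkage group lay on ChLG1 from 10471931 to 10472226, with folds of 17.0 and 21.9 in the 2 CNS lists. The next spanned positions 12128162 to 12128448 of ChLG4, and its folds were 16.3 and 21.4. It was called in none of the 10 lists of later embryos and larval epidermis, whereas the region on ChLG1 was called in 3 of 6 epidermis lists and in 3 of 4 later embryo lists. The next was on ChLG3 at 34360791 to 34361256 (folds 16.0 and 20.0), followed by ChLG3 at 30124793 to 30125109 (folds 16.0 and 21.1) and ChLG2 at 14059658 to 14059900 (folds 15.8 and 19.1). In that order, 2, 2 and 0 of the 6 epidermis lists called these regions. Of the 4 later embryo lists, 1, 3 and 1 called them. Summits of the 2 CNS replicates lay between 1 and 8 bp apart in these 5 regions. Absence from the embryo lists means that no peak passed the q threshold of 0.05 there, not that the chromatin was closed.

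The strongest embryo-only region on a linkage group covered positions 6357013 to 6357567 of ChLG5, and its folds were 28.0 and 29.6 in the 2 embryo lists. It was also called in both lists of embryos aged 24 to 48 h, in neither list of embryos aged 48 to 72 h and in 1 of 6 epidermis lists. The region at 17114412 to 17114799 of ChLG2 (folds 20.8 and 21.3) and that at 18879892 to 18880275 of ChLG9 (folds 20.4 and 23.3) were likewise called in both 24 to 48 h lists, in neither 48 to 72 h list and in no epidermis list. The region at 19964820 to 19965149 of ChLG9 (folds 21.5 and 22.1) was called in 1 of the 24 to 48 h lists. The fifth region, on ChLG2 at 3557887 to 3558167 with folds of 23.1 and 19.2, was called in all 4 later embryo lists and in no epidermis list. None of these 5 regions was called in more than 1 of the 6 epidermis lists.

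The 10 lists from other groups took no part in forming the classes, but each was matched in part to one side of them. They were 3 lists each of lateral epidermis from pu11 larvae chosen by enhancer-trap activity, taken with the elytron disc (T2) or the hindwing disc (T3), and 2 lists each of Georgia I embryos aged 24 to 48 h and 48 to 72 h. Epidermis shared strain and larval stage with the CNS group. Later embryos shared strain, fixation time and index length with the 0 to 24 h embryos. Calls in these lists are therefore not an independent readout of tissue. CNS-only regions were rarely called in later embryos. Over all 44347 merged regions, 34.4% overlapped a peak in an epidermis list and 32.7% in a later embryo list, as means over 6 and 4 lists. CNS-only regions overlapped a peak in 9.65%, 27.1% and 27.0% of cases in the T2 lists and in 41.2%, 31.8% and 33.0% in the T3 lists. The shares were 0.864% and 1.65% in the 24 to 48 h lists and 2.45% and 1.05% in the 48 to 72 h lists. All 6 epidermis lists lay above all 4 later embryo lists, with means of 28.3% ± 10.5 (SD, n = 6) in epidermis and 1.50% ± 0.714 (SD, n = 4) in later embryos. The epidermis mean was below that over all regions, and the later embryo mean far below it.

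Embryo-only regions showed no such division. They overlapped a peak in 20.1% ± 4.58 of cases in epidermis lists (SD, n = 6) and in 20.9% ± 8.02 in later embryo lists (SD, n = 4), and the ranges of 11.3% to 24.5% and 11.6% to 31.0% overlapped. Both means were below those over all regions. In the 24 to 48 h lists 22.0% and 31.0% of embryo-only regions were called, beside 34.4% and 42.4% of all regions. In the 48 to 72 h lists 18.8% and 11.6% were called, beside 33.0% and 20.8% of all regions. Regions called in all 4 lists were found in 47.6% ± 10.2 of cases in epidermis and 57.4% ± 15.1 in later embryos (SD, n = 6 and 4).

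For each of the 10 lists the share of embryo-only regions called was subtracted from the share of CNS-only regions called. The difference was 8.20 ± 6.21 percentage points in epidermis lists (SD, n = 6) and −19.4 ± 7.92 in later embryo lists (SD, n = 4). The gap of 27.6 points between them was tested by exact permutation of the 10 lists (two-sided p = 0.00952, which none of the 210 splits can go below, and 0.0143 after adjustment over 3 such tests), and all 6 epidermis lists lay above all 4 later embryo lists. This test was added after the values had been seen. The permuted splits break up replicates, and epidermis and later embryos differ in strain, stage and index length as well as tissue. Depth moved with the groups too, at 1.96 to 5.77 in epidermis and 1.89 to 2.53 in later embryos. The T2 replicate 1 list, at a depth of 1.96, had a difference of −1.66 points. This compares with 5.43 to 16.7 in the other epidermis lists and −10.6 to −29.3 in the later embryo lists. It is 1 list, and the part of depth was not tested.

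**Figure D2:**
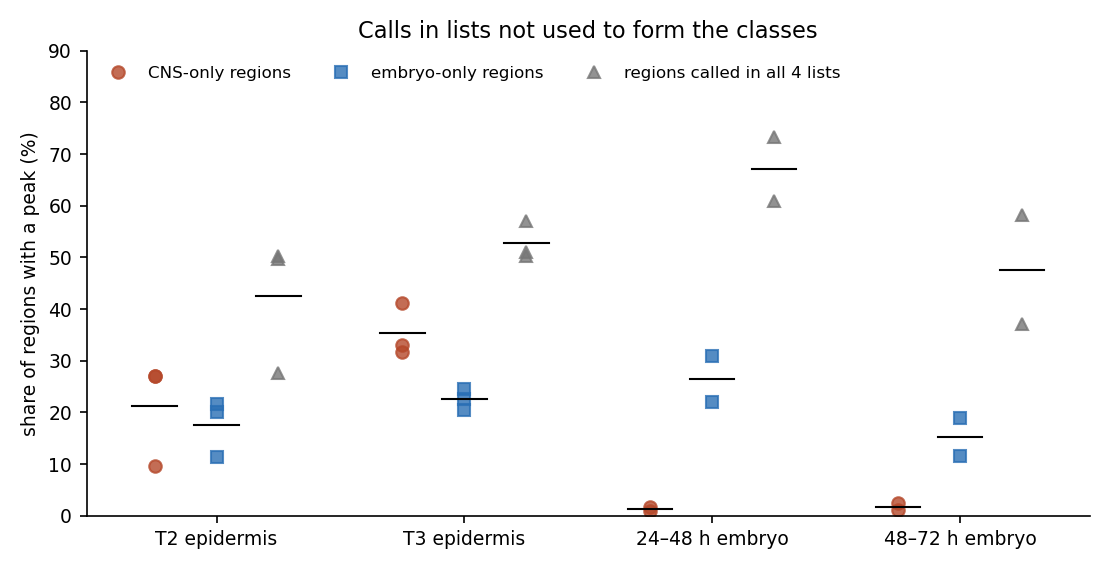
Share of CNS-only regions, embryo-only regions and regions called in all 4 lists that overlap a peak, in percent, for each of the 10 lists of other groups; points are lists and bars are group means. CNS-only regions lie between 9.65% and 41.2% in epidermis lists and between 0.864% and 2.45% in later embryo lists, while embryo-only regions overlap between them.

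Taken over lists, 2295 CNS-only regions (47.2%) were called in at least 1 epidermis list and 188 (3.87%) in at least 1 later embryo list. The same counts for embryo-only regions were 1179 (31.8%) and 1369 (37.0%). For regions called in all 4 lists they were higher, at 13615 (64.2%) and 17132 (80.8%). In all 6 epidermis lists 424 CNS-only regions (8.72%) and 391 embryo-only regions (10.6%) were called. Of the regions called in all 4 lists, 5633 (26.6%) were. A total of 2468 CNS-only regions (50.8%) and 1781 embryo-only regions (48.1%) were called in none of the 10 lists, against 1795 (8.47%) of the regions called in all 4 lists.

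One-sided regions were next divided by their rank. CNS-only regions below the 50th percentile in either CNS list were called in 27.5% of cases in epidermis lists on average, and those at or above the 80th percentile in both in 29.0%. In later embryo lists these shares were 0.765% and 8.52%. Shared regions in the same 2 rank ranges of the CNS lists were called in 32.9% and 62.6% of cases in epidermis. In later embryos they were called in 43.1% and 79.5%. Among embryo-only regions at or above the 80th percentile in both embryo lists (170 regions), 64.7% were called at 24 to 48 h and 22.4% at 48 to 72 h, each the mean of 2 lists, and 18.3% in epidermis. For the 170 the lower and the higher list gave 52.9% and 76.5% at 24 to 48 h, and 14.7% and 30.0% at 48 to 72 h, so the stages did not overlap. Shared regions at or above the 80th percentile in both embryo lists also separated by stage, at 92.9% to 97.3% in the 24 to 48 h lists and 67.2% to 82.4% in the 48 to 72 h lists, and averaged 67.7% in epidermis. Embryo-only regions below the 50th percentile averaged 22.5% in the 24 to 48 h lists, 15.6% in the 48 to 72 h lists and 21.1% in epidermis. Shared regions in that range averaged 44.0%, 28.7% and 35.6%.

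One-sided regions were unevenly spread over the assembly. On unplaced scaffolds 888 of 4545 regions (19.5%) were embryo-only and 330 (7.26%) were CNS-only. On the 10 linkage groups the order was the other way, with 2815 embryo-only regions (7.07%) and 4530 CNS-only regions (11.4%) among 39802, and 49.2% were called in all 4 lists. Scaffolds therefore held 24.0% of the embryo-only class and 6.79% of the CNS-only class. Among linkage groups the number of CNS-only regions per embryo-only region ran from 0.991 on ChLG6, 1.02 on ChLG10 and 1.17 on both ChLG1 and ChLG8 to 2.23 on ChLG3 and 2.08 on ChLG2.

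**Figure D3:**
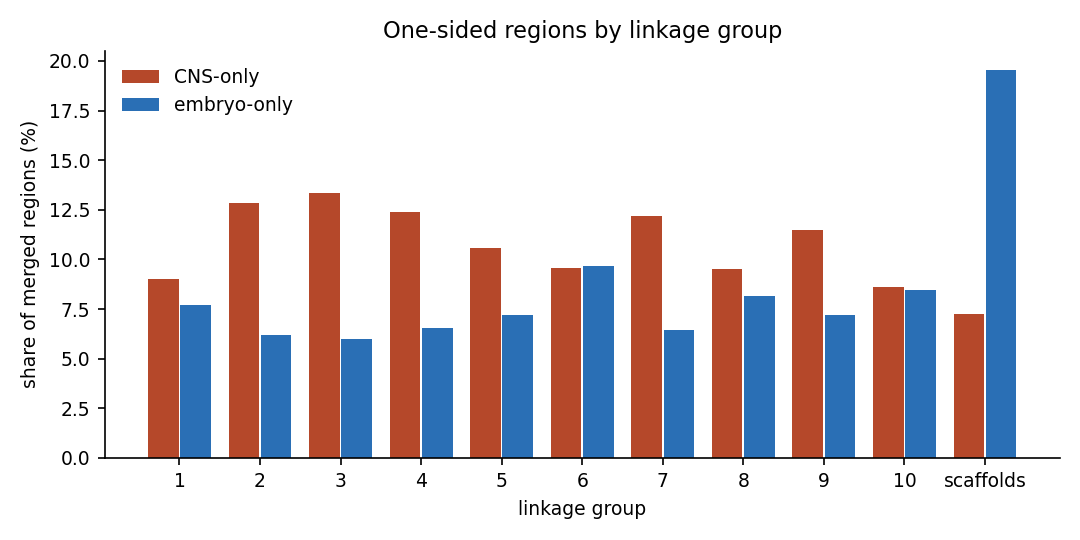
Share of merged regions that are CNS-only (left bar) or embryo-only (right bar), in percent of all merged regions of that linkage group or of the scaffolds. On scaffolds 19.5% are embryo-only and 7.26% CNS-only, while over the linkage groups together the shares are 7.07% and 11.4%.

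Many embryo-only regions on scaffolds stood on a high local background. The local background was more than 5 times the depth of the list at 226 of the 888 in embryo replicate 1 (25.5%), against 5 of the 330 CNS-only scaffold regions in CNS replicate 1 (1.52%). On linkage groups these shares were 1.74% for embryo-only and 0.265% for CNS-only regions. Very wide peaks moved with this. CNS lists held no peak over 2500 bp, against 27 and 24 in the embryo lists, of which 26 and 23 were on scaffolds. A peak spanned 13020 bp of scaffold GG695826 in both embryo lists, with folds of 3.56 and 2.70 on a background 18.0 times the depth. The same scaffold had no peak in CNS replicate 1 and 14 peaks covering 2296 bp in CNS replicate 2, whereas at least 12942 bp were covered in each of the 10 other lists. The part of high background in the embryo-only class was not tested.

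Embryo-only regions on scaffolds were called more often in the other lists than those on linkage groups. Embryo-only regions on scaffolds were called in 38.7% ± 3.62 of cases in epidermis (SD, n = 6) and 39.9% ± 6.77 in later embryos (SD, n = 4). Those on linkage groups were called in 14.2% ± 4.92 in epidermis and 14.9% ± 8.46 in later embryos. The share over all scaffold regions is not given here, so this is not shown to be particular to the class. As group means, scaffolds held 12.7% to 18.6% of peaks in the other lists. They held 11.2% in 0 to 24 h embryo lists and 8.32% in CNS lists. CNS-only regions on scaffolds were called in 32.5% ± 10.1 of cases in epidermis and 2.73% ± 1.24 in later embryos. CNS-only regions on linkage groups were called in 28.0% ± 10.6 of cases in epidermis and 1.41% ± 0.682 in later embryos, close to the values for the whole class. With linkage groups alone the gap between epidermis and later embryos was 27.2 points.

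Regions of the same class lay next to each other more often than their share of the map. On linkage groups 19.1% of the neighbours of CNS-only regions were CNS-only, against 11.4% of all regions. Of the neighbours of embryo-only regions 18.2% were embryo-only, against 7.07% of all regions. Neighbours of the opposite class made up 3.36% for CNS-only regions and 5.40% for embryo-only regions. The nearest region of any class lay at a median of 816 bp from a CNS-only region, 519 bp from an embryo-only region and 784 bp from a region called in all 4 lists. These are descriptions, since neighbouring regions are not independent.

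In windows of 100 kb the mean number of one-sided regions was 2.98 CNS-only and 1.85 embryo-only over 1521 windows. The windows named next were picked after these counts had been seen. The highest CNS-only count was 19, in windows starting at 12900001 on ChLG2, 900001 on ChLG3 and 16200001 on ChLG9, with 0, 1 and 0 embryo-only regions there. In the window from 8300001 to 8400000 on ChLG4, 16 of 39 regions (41.0%) were CNS-only and none was embryo-only. Between 0 and 6 of those 16 were called in an epidermis list and at most 1 in a later embryo list. Over all CNS-only regions the shares were 9.65% to 41.2% in epidermis lists and 0.864% to 2.45% in later embryo lists.

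The densest embryo-only stretch was in a pair of adjoining windows on ChLG4, from 3600001 to 3800000, with 21 and 29 embryo-only regions. The 50 regions lay between 3604989 and 3756007, had a median width of 215 bp and median folds of 5.73 and 5.43 in the embryo lists, and were interspersed with 28 regions called in all 4 lists and 7 CNS-only regions. Even the shared regions there ranked lower in CNS, at median percentiles of 31.9 and 35.9 in CNS against 63.6 and 64.3 in embryos. Of the 50, 16 and 28 were called at 24 to 48 h, 18 and 1 at 48 to 72 h, and between 1 and 9 in the epidermis lists. Over all embryo-only regions the shares were 22.0% and 31.0% at 24 to 48 h and 18.8% and 11.6% at 48 to 72 h. In epidermis they were 11.3% to 24.5%. The CNS lists held 50 and 47 peaks over the ChLG4 stretch, against 93 and 104 in the embryo lists.

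At regions called in all 4 lists the replicates ranked alike and the groups did not. Over the 21200 regions Spearman's rho of fold was 0.916 between CNS replicates and 0.874 between embryo replicates, and from 0.424 to 0.488 in the 4 pairs of a CNS and an embryo list. These values are across regions, which are not independent, and carry no test. The overlap of lists by base pairs, as the Jaccard index, was 0.707 for the CNS pair and 0.779 for the embryo pair, and from 0.478 to 0.599 between groups. Its mean was 0.203 higher within groups (one-sided exact permutation p = 0.333, the lowest value possible with 3 arrangements, and 0.417 after adjustment).

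A region was taken as ranked higher or lower in CNS where both CNS percentiles lay beyond both embryo percentiles. By this rule 6657 regions (31.4%) ranked higher and 8502 (40.1%) ranked lower in CNS, and the percentiles of the other 6041 regions overlapped between groups. At equal list sizes 5835 (30.9%) ranked higher and 7953 (42.2%) lower, and after scaling to one depth 31.2% ranked higher and 40.5% lower. Most gaps were small. A gap of over 25 percentile points was found at 2008 regions ranked higher in CNS (9.47%) and 1977 ranked lower (9.33%), and a gap of over 50 at 418 and 342. The shares past 25 points were 9.74% and 10.5% at equal list sizes, and 9.52% and 9.71% after scaling.

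**Figure D4:**
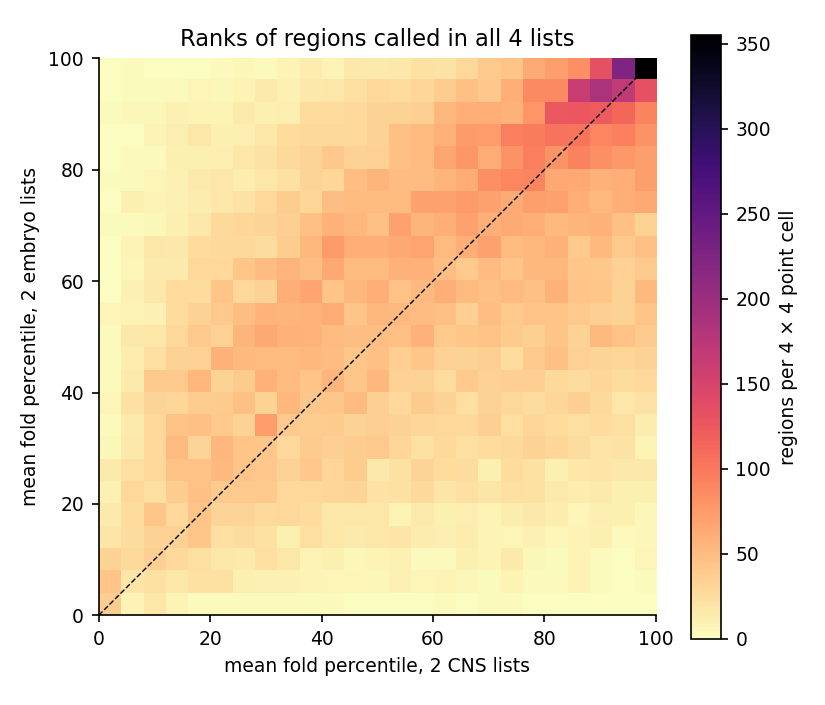
Mean fold percentile of the 2 CNS lists (x) against that of the 2 embryo lists (y) for the 21200 regions called in all 4 lists; colour gives the number of regions per cell and the dashed line marks equal ranks. Regions crowd at the top right, where peaks are strongest in both groups, and spread widely on both sides of the line, with 2008 regions over 25 points higher and 1977 over 25 points lower in CNS.

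The regions with the largest gaps were among the strongest peaks of one group and the weakest of the other. The region on ChLG2 from 19393630 to 19394146 had folds of 9.62 and 15.3 in CNS, at percentiles 94.1 and 96.2, against 2.92 and 2.94 in embryos, at percentiles 2.73 and 5.23. Its CNS peaks were 517 and 481 bp wide, against 127 and 169 bp in embryos. Similar regions were on ChLG9 from 13006327 to 13006800, on ChLG6 from 2528463 to 2528783 and on ChLG2 from 12037840 to 12038156. Their folds lay between 12.8 and 21.1 in CNS and between 3.25 and 3.56 in embryos. The last 2 of them were called in 3 of 4 later embryo lists each and in no epidermis list.

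In the other direction, the region on ChLG4 from 9023173 to 9023641 had folds of 2.29 and 2.77 in CNS, at percentiles 6.97 and 8.62, against 17.7 and 21.5 in embryos, at percentiles 97.0 and 98.7. Its summits lay 312 bp apart in the 2 CNS lists, in separate small peaks of 125 and 127 bp, and 5 bp apart in the embryo lists. The other 3 were an 885-bp region of scaffold DS497745.1 from 23795 to 24679, and on ChLG8 from 9289010 to 9289571 and from 4971666 to 4972229. Their folds lay between 1.93 and 2.89 in CNS and between 12.1 and 18.7 in embryos. The last of them was called in all 10 lists of later embryos and epidermis.

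Regions that ranked among the highest in all 4 lists were led by one on ChLG6 from 11027256 to 11027646, with folds of 21.5 and 30.3 in CNS, against 37.1 and 36.0 in embryos. Next came positions 10223566 to 10224077 of ChLG4, where folds were 19.8 and 28.3 in CNS, against 43.1 and 34.4 in embryos. The next region, at 1597377 to 1598092 of ChLG4, had folds of 19.4 and 27.1 in CNS, against 36.9 and 35.8 in embryos. All 3 were called in each of the 4 later embryo lists, and in 1, 0 and 1 of the 6 epidermis lists. No pileup exceeded 250 in any list. Fold is (pileup + 1) / (background + 1), so the highest fold a list can reach is lower in a deeper list. Folds are therefore not like for like between lists. The lowest folds of these regions were in CNS replicate 1, the deepest list, and the part of depth was not tested. The widest peak of both CNS lists, 2421 and 2360 bp on ChLG1 within 2278136 to 2280556, was also a single strong peak in embryos, of 2076 and 2229 bp, with folds of 17.4 and 25.8 in CNS against 37.6 and 33.7 in embryos. Pileups there were 188 and 177 in CNS, and 176 and 192 in embryos. This region was chosen after its values had been seen.

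Rank in the 4 lists was set against calls in the other lists. Regions ranked over 25 points lower in CNS were called at 24 to 48 h in 72.3% and 87.0% of cases, and those ranked over 25 points higher in CNS in 42.4% and 58.4%. Over all regions called in all 4 lists these shares were 61.0% and 73.4%. At 48 to 72 h the shares were 57.7% and 30.7% for regions lower in CNS, and 52.6% and 34.1% for regions higher in CNS. Over all regions called in all 4 lists they were 58.1% and 37.1%. In epidermis 47.6% of the regions called in all 4 lists were called on average. Regions higher in CNS were called there in 48.3% ± 12.2 of cases and regions lower in CNS in 46.3% ± 11.3 (SD, n = 6). The difference between these 2 sets of regions was 1.93 ± 1.35 points in epidermis (SD, n = 6) and −15.0 ± 16.7 in later embryos (SD, n = 4). It did not pass the threshold between these groups (exact permutation p = 0.0571, two-sided, adjusted p = 0.0571 over 3 tests), and was −29.9 and −28.6 points in the 24 to 48 h lists against −5.12 and 3.41 in the 48 to 72 h lists. This result depended on the lists kept. Leaving out replicate 2 of the 48 to 72 h embryos gave a gap of 23.1 points (exact permutation p = 0.0238). Leaving out any other later embryo list gave an exact permutation p of 0.143, and leaving out an epidermis list 0.0794 to 0.0952. Settings that kept all lists gave an exact permutation p of 0.0571 to 0.162. Leaving out a CNS or 0 to 24 h embryo list gave gaps of 15.23 to 26.13 points.

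Shared regions were slightly wider in CNS. The median width of the strongest peak per region was 294 bp in both CNS lists, against 258 and 284 bp in the embryo lists. The difference of 23 bp was smaller than the gap between the embryo replicates (two-sided exact permutation p = 0.333, and 0.417 after adjustment, n = 2 each). A peak more than 2 times as wide in both CNS lists as in both embryo lists was found at 598 regions (2.82%), and the reverse at 452 (2.13%).

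Summits at shared regions were placed almost as closely between groups as between replicates. The median distance between summits was 14 bp for the CNS pair and 13 bp for the embryo pair, and from 17 to 21 bp between a CNS and an embryo list. The mean difference of 5.5 bp had a one-sided exact permutation p of 0.333 (0.417 after adjustment), again the lowest value possible. Summits more than 200 bp apart were found at 5.52% of regions for the CNS pair, 5.09% for the embryo pair and between 8.62% and 10.1% between groups.

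**Figure D5:**
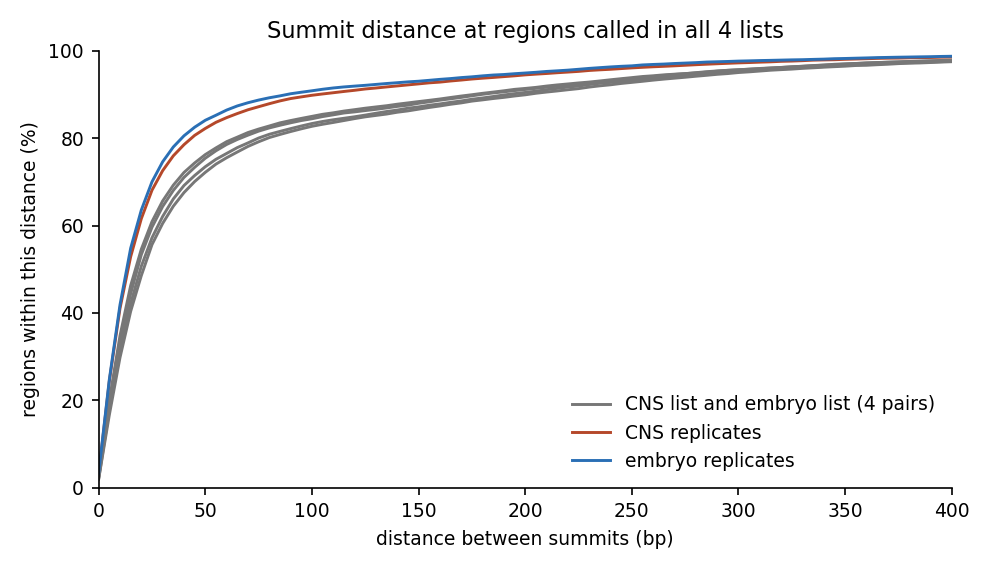
Cumulative share of the 21200 shared regions, in percent, by the distance between the summits of 2 lists in bp, for each of the 6 pairs of lists. The 4 curves between groups run below both replicate curves, with 72.2% to 76.2% of regions within 50 bp, against 82.2% for CNS replicates and 84.1% for embryo replicates.

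A summit was taken as moved where replicates lay within 50 bp of each other on both sides and every CNS summit lay at least 150 bp from every embryo summit. This was so at 810 regions (3.82% of those called in all 4 lists), with a median move of 265.5 bp. The rule itself favours wide regions and regions of several peaks, since summits at least 150 bp apart must lie in 1 merged region. Moved regions were wider than shared regions in general, at a median of 625.5 bp against 379 bp, and 375 of them (46.3%) held more than 1 peak in at least 1 list. In epidermis lists the summit within such a region lay nearer to the CNS summit in 58.3% ± 1.86 of cases (SD, n = 6), and in later embryo lists in 45.0% ± 9.30 (SD, n = 4). The difference of 13.3 points was past the threshold (two-sided exact permutation p = 0.00952, and 0.0143 after adjustment over 3 tests, added after the values had been seen), with all 6 epidermis lists above all 4 later embryo lists. The stages differed in this measure, at 38.7% and 35.4% in the 24 to 48 h lists and 52.0% and 53.9% in the 48 to 72 h lists.

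A pair of moved regions with strong peaks is given as an example; closeness of the CNS and embryo replicates there is part of the rule. On ChLG10 from 7277956 to 7278596 the summits lay 401 and 411 bp from the start of the region in CNS, against 156 and 171 bp in embryos, with folds of 14.2 and 20.8 in CNS against 22.3 and 24.1 in embryos. The 24 to 48 h lists placed it at 423 and 174 bp, and the 48 to 72 h lists at 463 and 418 bp. On ChLG9 from 17279205 to 17279830 the summits lay 207 and 177 bp from the start in CNS, against 483 and 491 bp in embryos. The 24 to 48 h lists placed it at 502 and 495 bp, and the 48 to 72 h lists at 184 and 470 bp. Replicates of a later stage thus lay apart at each region, at 24 to 48 h on ChLG10 and at 48 to 72 h on ChLG9. Both regions were picked after the values had been seen.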

How the data were processed

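The deposited files were narrow peak lists, each called on a single FAIRE sample, as the peak names show. Per the submitters' processing notes the tools included Trimmomatic 0.32, Bowtie2 2.2.3, SAMtools 0.1.12a, deepTools 2.5.2 and MACS2 2.1.1.20160309; their settings, the control library and the genome build are not given in the sources used here. The lists deposited by the authors give, per peak, the fold enrichment over background (a ratio), p-values and q-values as −log10, and the distance of the summit from the start. The deposited score column was not used. The smallest −log10 q lay between 1.30 and 1.36, near a q of 0.05. Coordinates count from 1 on the assembly of the lists, and no gene or sequence was assigned to them.

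Total reads are unknown. Pileup and local background at each summit were solved from fold = (pileup + 1) / (background + 1) and the Poisson tail, which matched −log10 p within 0.001 for 100% of peaks. The smallest background of a list was taken as its depth. Peaks overlapping by 1 bp or more were merged, and where a list had several peaks in a region the one of largest fold was used. Percentiles are ranks of fold among all peaks of a list. Differences between groups were tested by exact permutation of lists with Benjamini-Hochberg adjustment, with a threshold of 0.05. With 2 against 2 lists a single region cannot be tested, so classes rest on presence in both replicates.

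Named regions were the 5 one-sided regions per class on linkage groups with the largest smaller fold, the 3 highest by smallest percentile among regions called in all 4 lists, and the 4 with the largest percentile gap each way. The comparison, classes and rules were chosen with earlier results of these data known. Alternatives were equal list sizes, one depth, −log10 q of at least 5, linkage groups only, merging within 100 bp, a peak covering 50% of the region, 200-bp summit windows, ranks by −log10 p, a block by replicate number, and omission of each list in turn. The 3 tests on the other 10 lists, with moved summits and 100-kb windows, were added after the data had been seen. Gene lists drawn up for this comparison were not used, since genes could not be placed on the assembly of the lists. Class, rank and summit rules were tested on simulated data. Python 3.11.15, NumPy 2.4.6, pandas 2.3.3 and SciPy 1.17.1 were used.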

Additional observations from a re-analysis of the deposited data

Results flagged for a closer look

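A pair of measures differed between epidermis and later embryos. These lists took no part in forming the classes, but each was matched in part to one side of them. Later embryos shared strain, fixation time and index length with the 0 to 24 h embryos. The share of CNS-only minus the share of embryo-only regions called was 27.6 percentage points higher in the 6 epidermis lists than in the 4 later embryo lists (two-sided exact permutation p = 0.00952, and 0.0143 after adjustment). The share of moved summits nearer to the CNS summit was 13.3 points higher in the 6 epidermis lists than in the 4 later embryo lists (two-sided exact permutation p = 0.00952, and 0.0143 after adjustment). That share was 38.7% and 35.4% in the 24 to 48 h lists and 52.0% and 53.9% in the 48 to 72 h lists. In epidermis lists it was 55.8% to 61.5%. Both tests were added after the values had been seen, and the lists are not an independent readout of tissue. Strain, stage, index length and depth moved with the groups in both, and their part was not tested.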

How the results depend on the processing

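Counts of CNS-only, embryo-only and shared regions and of regions ranked higher or lower in CNS stayed within 1.5 times the reported count under every setting that kept all 4 lists. Leaving out 1 list loosened the criterion and moved the CNS-only count to between 5393 and 9468 and the embryo-only count to between 4520 and 5939. The difference in covered length, 0.347 Mb, turned to −0.129 Mb at equal list sizes and ranged from −0.163 to 0.857 Mb when 1 list was left out. The differences in peak number, Jaccard index, width and summit distance kept their sign in all settings, and none could pass the threshold with 2 lists against 2. With the replicate number as a block, a pairing the labels do not explain, the differences were 2403 peaks (exact p = 0.5), 0.347 Mb (exact p = 1) and 23 bp (exact p = 0.5). The gap of 27.6 points in calls of one-sided regions ranged from 22.4 to 30.5 when a list was left out, and that of moved summits from 10.1 to 19.5, with exact permutation p from 0.00952 to 0.0238 over all settings. For ranked regions the gap of 17.0 points ranged from 12.03 to 26.13 when a list was left out (exact permutation p from 0.00952 to 0.162 over all settings). The 176 values that could be had for the 21 named regions kept their class or the sign of their rank gap. Of the 8 regions named for a rank gap, 5 were no longer called in all 4 lists at equal list sizes, 5 at −log10 q of at least 5 and 2 after scaling to one depth, and 1 is on a scaffold, so these gave no value. Number of peaks is fixed by equal list sizes, and some settings cannot change number, length or overlap, so these gave no value. A missing call at 3.71 to 9.85 reads per base of background is not evidence of closed chromatin.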
